A study of Mus musculus with 2 samples.

Results

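Of the 16819 gene symbols in the expression matrix of 2668 CD45+ cells of the dorsal root ganglion (DRG), 10 genes of cytotoxic and effector lymphocytes were followed: Gzma, Gzmb, Prf1, Nkg7, Ccl5, Xcl1, Ifng, Trdc, Klrd1 and Klrk1. They were taken by name, and their raw UMIs (unique molecular identifiers, 1 per captured mRNA molecule) were read in lymphocytes, defined as cells with at least 3 UMIs summed over Cd3d, Cd3e, Cd3g, Trbc1, Trbc2, Ncr1 and Klrb1c. Cells of this gate with any UMI of the CD3 chains Cd3d, Cd3e or Cd3g were called CD3-positive, and those with none CD3-negative. The cells came from naive wild-type BALB/cAnNRj mice that had been perfused. Their pooled cervical, thoracic and lumbar ganglia were digested, and live CD45+ cells were sorted and loaded together on 1 lane of the 10x 3′ v3 assay. Hashtag antibodies marked 3 male and 3 female animals. All mice were untreated, so there was no treatment to compare, and the 2668 cells were those with 1 male hashtag (481, 772 and 1415 cells of male 1, 2 and 3). Cells with 1 female hashtag (382, 313 and 378) were taken from the larger matrix of the same lane as a second set of animals.

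Killer lymphocytes store granzymes and perforin in granules. Perforin, encoded by Prf1, opens the target cell membrane, and the granzymes, serine proteases that here are Gzma and Gzmb, enter and start cell death. Nkg7 encodes a membrane protein of these granules. The same cells secrete chemokines (Ccl5, which attracts leukocytes, and Xcl1, which attracts XCR1-bearing dendritic cells) and interferon-gamma (Ifng), and sense targets through lectin-like receptors, among them CD94 (Klrd1, the partner of NKG2 chains) and NKG2D (Klrk1). Trdc encodes the constant region of the T cell receptor delta chain. Natural killer (NK) cells and innate lymphoid cells lack surface CD3, while alpha-beta and gamma-delta T cells carry it.

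The genes lie on 7 chromosomes of GRCm38 (GENCODE M21). Gzma spans chr13:113093825-113100981, Gzmb chr14:56258838-56262260, Prf1 chr10:61297833-61304680, Nkg7 chr7:43437073-43438249, Ccl5 chr11:83525778-83530518, Xcl1 chr1:164931644-164935527, Ifng chr10:118441046-118445892 and Trdc chr14:54142851-54148868. Klrd1 (chr6:129591782-129598775) and Klrk1 (chr6:129610323-129623864) are neighbours in the NK gene complex, 11547 bases apart and on opposite strands. 9 of the 10 are annotated as protein coding, and Trdc as a T cell receptor constant gene. The promoter table of RefSeq (GRCm38.p6) held 7 of the 10, all but Ccl5, Trdc and Klrd1. The granule genes are shown because they carry the killing programme. Each line gives the 140 bases before the first transcribed base in either annotation, 5′ to 3′ on the gene's strand. Counted from the RefSeq start the lines run from -140 to -1 for Gzma and Gzmb, from -143 to -4 for Prf1 and from -205 to -66 for Nkg7, and capitals mark matches to the RUNX core motif TGTGGT on either strand.
Gzma (GRCm38.p6 chr13:113100982-113101121, minus strand): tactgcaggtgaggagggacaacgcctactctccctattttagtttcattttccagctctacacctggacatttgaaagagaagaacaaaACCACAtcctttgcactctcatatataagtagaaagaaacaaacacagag
Gzmb (GRCm38.p6 chr14:56262335-56262474, minus strand): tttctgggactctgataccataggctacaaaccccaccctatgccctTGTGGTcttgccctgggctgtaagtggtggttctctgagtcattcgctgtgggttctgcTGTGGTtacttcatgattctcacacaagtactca
Prf1 (GRCm38.p6 chr10:61297693-61297832, plus strand): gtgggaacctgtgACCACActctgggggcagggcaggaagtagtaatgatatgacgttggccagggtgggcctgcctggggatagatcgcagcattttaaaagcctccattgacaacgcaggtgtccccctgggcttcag
Nkg7 (GRCm38.p6 chr7:43436933-43437072, plus strand): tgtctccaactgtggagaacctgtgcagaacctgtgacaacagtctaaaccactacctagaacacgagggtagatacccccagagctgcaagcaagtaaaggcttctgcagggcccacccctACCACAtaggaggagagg
Within 250 bases upstream of the start, TGTGGT or its complement was present in 6 of the 7 genes (Gzma, Gzmb, Prf1, Nkg7, Xcl1 and Klrk1) and in 14.0% of all 32851 promoter entries. Gzmb had 2 copies, at -93 and -34 from the RefSeq start. The other letters searched, also on both strands, were GGTGTG (T-box), in 2 of the 7 genes and 16.3% of all entries, AGGAAG (ETS), in 3 and 29.5%, TGANTCA (AP-1), in 1 and 6.75%, TGACGTCA (CRE), in 0 and 1.55%, and GGGANTTCC (NF-kB), in 0 and 1.43%. These are matches of letters only, and no binding was measured.

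The gate was first checked against cell type markers, because the 2668 cells can be clustered on all genes. It took 373 cells, 329 CD3-positive and 44 CD3-negative, of which only 120 lay in the cluster with lymphocyte markers. That cluster of 135 cells had raised T cell genes (Cd3d, Cd3e, Cd3g, Trac, Trbc1, Trbc2), gamma-delta genes (Trdc, Tcrg-C1, Tcrg-C4) and genes of type 2 innate lymphoid cells (ILC2: Gata3, Il1rl1, Il7r, Rora), with Ncr1 and Klre1 of the NK list. Another 226 cells of the gate, 60.6% of it and 68.7% of the CD3-positive class, lay in neutrophil clusters. They held 1247 UMIs of Cd3d, 0 of Cd3e, and only 10 of the 226 had a UMI of any other gate gene. Cd3d was found in 64.6% of all 565 neutrophils (68.1%, 55.1% and 66.0% in male 1, 2 and 3) against 1 of 134 B cells, which have a lower median depth. The remaining 27 were 20 macrophages, 19 of them with Cd3e, 2 monocytes and 5 cells of an unnamed cluster with Mki67 and Top2a. So the gate as written goes against its name for most of its cells, and each result is given for all 373 cells and for the 120 cells of the lymphocyte cluster (35, 30 and 55 in male 1, 2 and 3, 78 CD3-positive and 42 CD3-negative). Of the 63 cells at 3 gate UMIs, 4 were in that cluster, and of the 82 cells at 2, just outside the gate, also 4. In all, 15 of the 135 cells of the cluster fell under the gate and are in neither class. Those 15 cells had 0 UMIs of Gzma, Prf1, Ccl5, Ifng, Trdc, Klrd1 and Klrk1. They had 8 UMIs of Gzmb in 1 cell, 11 of Nkg7 in 2 cells and 1 of Xcl1, at a median depth of 3235 UMIs.

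All 10 genes had higher levels per UMI in the 120 cells than in the 2280 cells outside both the gate and the lymphocyte cluster. Even so, 41 of the 120 cells had none of the 10. Ifng had 59 UMIs in the 120 cells and 0 in the 2280, at least 691-fold higher per UMI against a floor of 3 counts over the group. That zero allows a share of up to 0.132% of cells with a UMI. Gzma had 533 UMIs against 4, Xcl1 466 against 4, Gzmb 83 against 1, Prf1 71 against 4 and Trdc 302 against 12. Nkg7, Ccl5, Klrd1 and Klrk1 were less exclusive, with 259, 678, 75 and 150 UMIs outside, and levels per UMI that were 83.1, 85.2, 79.6 and 30.9 times higher in the 120 cells. Counts were then summed per mouse and tested across all genes by edgeR (quasi-likelihood test, p adjusted after Benjamini and Hochberg), with genes called at an adjusted p under 0.05. All 10 genes were higher in the 373 gate cells than in all other cells, where 17.2% of 9647 genes tested were called higher. All 10 were also higher under each alternative run on gate cells, where 798 of 9257 (without male 3) to 1803 of 9723 genes (gate at 2 UMIs) were. The log2 fold change ran from 3.18 (standard error 0.48, adjusted p = 0.00104) for Klrk1 to 10.43 (standard error 0.70, adjusted p = 4.57e-05) for Gzma. Over all genes 1657 were higher and 1968 lower, and 972 and 3380 when library size alone set the scale. For the 120 cells the log2 fold change ran from 4.67 for Klrk1 to 11.62 for Gzma, where 12.1% of 9180 genes were higher (1115 higher and 1782 lower, or 2022 and 1294 by library size alone). The cluster was found from all genes of these same cells, members included, and Trdc was among its raised markers. All counts and folds given here for the 120 cells are therefore a description and no test.

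Among the 120 cells the genes differed in how many cells had them and in how many UMIs such a cell held. Nkg7 had a UMI in 63 cells (52.5%, 95% Clopper-Pearson interval 43.2% to 61.7%), Klrk1 in 49, Ccl5 in 48, Xcl1 in 45, Klrd1 in 38 and Trdc in 37. Prf1 was seen in 29, Ifng in 19, Gzmb in 18 and Gzma in 15 cells. Gzma had the third largest sum of UMIs from the smallest number of cells: the median cell with any had 22 UMIs, the highest 109, and the 3 highest cells held 50.1% of the sum. Ccl5 was similar in strength, with a median of 20.5 UMIs in a cell that had it and 137 in the highest. Klrk1, Ifng and Prf1 were low in the cells that had them, with medians of 2, 2 and 1 UMI. Thinned to 2000 UMIs per cell (3 shallower cells left out), Prf1 fell from 24.2% to 13.7% of cells and Ifng from 15.8% to 8.55%, while Nkg7 moved from 52.5% to 50.4% and Ccl5 from 40.0% to 40.2%. B cells, which should lack these genes, had 1 UMI of Prf1 and 1 of Nkg7 among 134 cells, and none of the other members. Their median depth was 3203.5 UMIs per cell against 4527.5 in the 120. The neutrophil genes S100a8 and S100a9 had a UMI in 84.2% and 91.7% of the 120 lymphocytes, and the part of free RNA in the members' counts was not tested. Intervals and floors cover counting error only.

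The comparison of CD3-negative with CD3-positive cells describes how the effector genes divide between the classes. The classes enter the gate on unequal terms. A CD3-negative cell needs 3 UMIs of Trbc1, Trbc2, Ncr1 and Klrb1c, while UMIs of CD3 chains alone can admit a CD3-positive cell. In the cluster 73.8% of CD3-negative cells had Trbc1 and 76.2% had Trbc2. The contrast is thus partly set by the gate, and it cannot show where the killing programme sits. For the granule genes in the 120 cells, Gzma was at 33.5, 8.42 and 26.7 UMIs per 10000 in the CD3-negative cells of male 1, 2 and 3 and at 2.34, 13.7 and 1.34 in their CD3-positive cells. The classes overlapped, because male 2 had the lowest CD3-negative and the highest CD3-positive value. Few cells set these values: 7 of 42 CD3-negative cells had Gzma, and the 3 highest held 64.9% of its UMIs. Among the 78 CD3-positive cells 8 had it, and 1 cell held 79 of the 146 UMIs. On the log2 scale Gzma was higher in CD3-negative cells by 2.18 (standard error 0.54) over 3 mice and in 2 of the 3, with an adjusted p of 0.0207 in edgeR's quasi-likelihood test. Gzmb was at 1.67, 0.534 and 4.19 against 0.469, 3.92 and 0.448, again the other way round in male 2, and did not pass (log2 fold change 0.83, standard error 0.68, adjusted p = 0.681). Of the 41 Gzmb UMIs in CD3-positive cells 20 were in 1 cell. Prf1 was at 1.67, 0.935 and 4.06 in CD3-negative cells and 0.188, 0.872 and 0.946 in CD3-positive cells. It was higher in each mouse but too low for the filter on counts, so it has no test here. Nkg7 was at 21.5, 7.48 and 16.8 against 4.97, 12.6 and 10.6, and did not pass (log2 fold change 0.68, standard error 0.31, adjusted p = 0.317).

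The secreted factors divided. Ccl5 was at 42.7, 33.8 and 51.6 UMIs per 10000 in CD3-negative and 25.04, 18.6 and 22.4 in CD3-positive cells, so every CD3-negative value was above every CD3-positive one. The difference was 0.96 on the log2 scale (standard error 0.17), with an adjusted p of 0.00105. Xcl1 was at 19.2, 13.4 and 9.69 against 4.69, 9.01 and 5.53, also without overlap, and differed by 1.15 on the log2 scale (standard error 0.26), with an adjusted p of 0.0107. Ifng stayed low in both classes, at 0.837, 2.27 and 0.393 against 0.281, 3.34 and 0.498, and was not tested for its low counts.

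Of the receptors, Klrd1 was at 7.25, 3.74 and 4.84 in CD3-negative and 2.06, 2.47 and 1.99 in CD3-positive cells. All 3 CD3-negative values were above all 3 CD3-positive ones (log2 fold change 1.25, standard error 0.28, adjusted p = 0.00929). Klrk1, at 2.51, 4.27 and 2.36 against 0.844, 2.91 and 2.19, was higher in each mouse but overlapped, and its adjusted p was 0.423. Trdc ran the other way, at 0.837, 0.668 and 1.05 in CD3-negative and 6.47, 5.67 and 8.86 in CD3-positive cells, a log2 fold change of -3.03 with a standard error of 0.33 and an adjusted p of 2.65e-06.

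**Figure D1:**
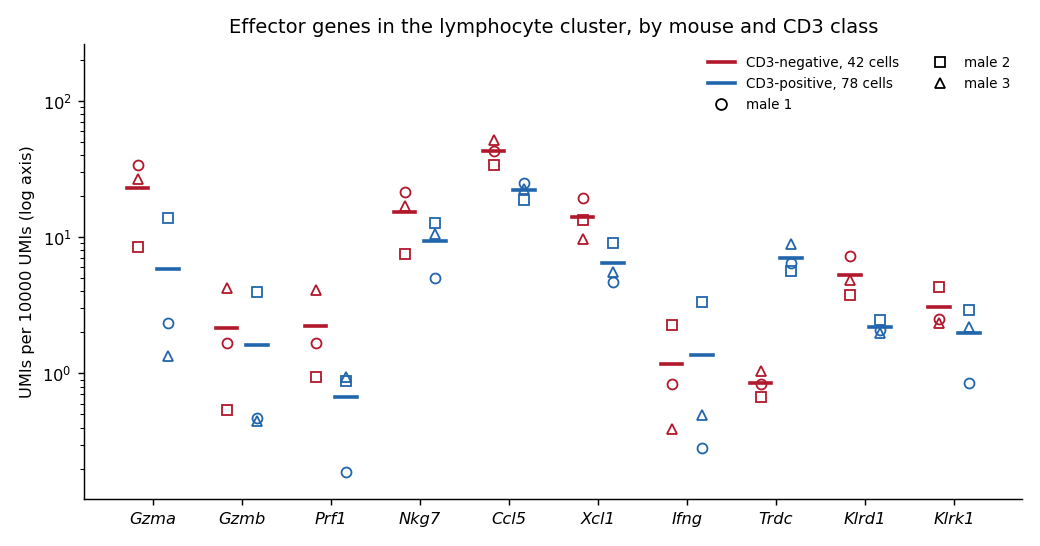
UMIs per 10000 UMIs (log axis) of the 10 genes in the 42 CD3-negative (red) and 78 CD3-positive (blue) cells of the lymphocyte cluster, with 1 symbol per male mouse and a bar at the mean. Ccl5, Xcl1 and Klrd1 are higher in CD3-negative cells without overlap, Trdc is lower, and the squares of male 2 cross over for Gzma, Gzmb, Nkg7 and Ifng. For Ifng the triangles of male 3 cross over as well.

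In the lymphocyte cluster 4 of the 8 genes tested (Gzma, Ccl5, Xcl1, Klrd1) were thus higher in CD3-negative cells, where 3.11% of 1124 genes tested were called higher, and 1 was lower, where 1.42% were. The counts leaned on single animals. Without male 1 only Ccl5 remained higher, where 24 of all 1167 genes tested were. Without male 3 no member was called higher, where 9 of 1194 genes were (Ccl5 then had an adjusted p of 0.0817 and Xcl1 of 0.0720). Without male 2, whose values crossed over, 7 were, Gzmb, Prf1 and Nkg7 added, where 25 of 1500 genes were. Trdc was lower in each case, where 13, 15 and 11 genes were without male 1, 2 and 3. DESeq2 called 2 genes higher, Ccl5 and Xcl1, and Trdc lower, against 0.663% and 0.585% of its 2564 genes. Over all genes edgeR called 35 higher and 16 lower, and DESeq2 17 and 15.

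With all 373 cells the same contrast was larger and called 8 genes higher in CD3-negative cells, all but Gzmb (adjusted p = 0.0581) and Trdc, against 14.0% of 3218 genes. The log2 fold change was 2.78 (standard error 0.89) for Gzma, 3.25 (0.58) for Prf1, 2.08 (0.43) for Nkg7, 2.81 (0.20) for Ccl5, 3.12 (0.42) for Xcl1, 2.62 (0.85) for Ifng, 2.86 (0.38) for Klrd1 and 2.46 (0.43) for Klrk1. Trdc was lower by less than in the cluster (log2 fold change -1.31, standard error 0.32), against 18.9% of genes. Without male 1 the gate gave 5 members higher, against 420 of 3687 genes, and without male 3 also 5, against 221 of 3345 genes. Without male 2 Trdc no longer passed. Over all genes 451 were higher and 607 lower. DESeq2 gave 304 and 649 of 7020 genes, and called 6 members higher, without Gzma (adjusted p = 0.162) and Ifng (adjusted p = 0.155). With a gate of 5 UMIs Gzma did not pass either (adjusted p = 0.155 by edgeR). Library size alone gave 1447 and 285 genes, with the median of all genes shifted to 0.89 on the log2 scale, 9 members higher and Trdc not called. Neutrophils made up 226 of the 329 CD3-positive cells here. Those 226 cells held 0 UMIs of Gzmb, Prf1, Xcl1, Ifng and Klrd1, 1 of Gzma, 1 of Klrk1, 2 each of Ccl5 and Trdc, and 31 of Nkg7. The 5 genes with the largest fold toward CD3-positive cells in this contrast were Ifitm6, Mmp8, Mgst1, Olfm4 and Cd177, of which Mmp8, Olfm4 and Cd177 are neutrophil genes. Ifitm6 and Mmp8 had 5921 and 5256 UMIs in CD3-positive and 0 in CD3-negative cells. With the mouse as a block, Gzmb also passed (adjusted p = 0.0233). With Cd3d left out of both the gate and the classes, 1 member, Ccl5, was higher (log2 fold change 1.36, standard error 0.15, adjusted p = 0.00662) and Trdc lower (-2.78, standard error 0.31, adjusted p = 0.00662), against 0.241% and 0.301% of 1660 genes.

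**Figure D2:**
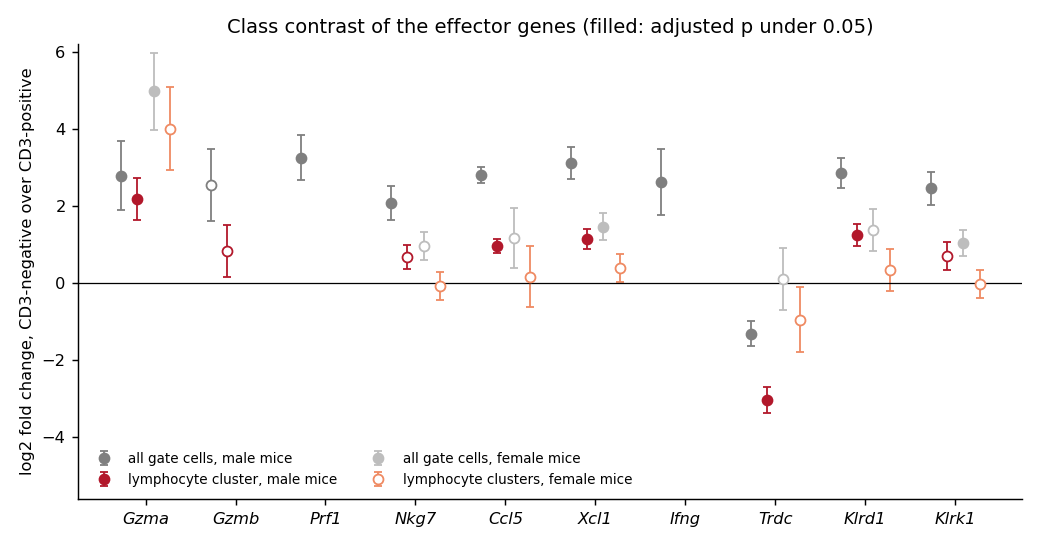
log2 fold change (CD3-negative over CD3-positive) with its standard error from edgeR for each gene, in all gate cells and in the lymphocyte clusters, for 3 male and 3 female mice, with filled symbols for an adjusted p under 0.05 and genes under the filter left out. In male mice the folds of the lymphocyte cluster (red) lie below those of all gate cells (dark grey) for every gene tested in both.

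The CD3-negative class itself held cells of a different kind in which the 10 genes were almost absent. Of its 42 cells in the lymphocyte cluster, 24 had a UMI of Ncr1 or Klrb1c, receptors of NK cells, and 18 had neither but had Gata3, Il1rl1, Il7r or Rora. In the 24 cells Nkg7 was present in 24, Ccl5, Xcl1 and Klrk1 in 22 each, Klrd1 in 20, Prf1 in 14, Gzmb in 11, Trdc in 9, Ifng in 8 and Gzma in 7. In the 18 cells, 1 cell had 2 UMIs of Nkg7, and the other 9 genes had 0 UMIs, which allows a share of up to 16.7% of cells. Median depth was 4417.5 and 4118.5 UMIs. The 18 cells had Gata3 in 16, Il1rl1, the receptor of IL-33, in 15 and Areg, the growth factor amphiregulin, in 7. Over all 42 CD3-negative cells Gata3 was in 29 and Il1rl1 in 15, so Gata3 was not limited to the 18. The 18 cells numbered 2, 7 and 9 in male 1, 2 and 3, beside 6, 9 and 9 cells with Ncr1 or Klrb1c. The 42 cells were therefore a mixture in each mouse, and a class mean of the effector genes averages over both kinds.

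The CD3-positive class had its own cells with Ncr1 or Klrb1c, 14 of 78, with 3, 4 and 7 in male 1, 2 and 3. They carried 122 of the 146 Gzma UMIs of the CD3-positive cells, 67 of 79 of Klrd1 and 125 of 223 of Xcl1. Of the 14, 9 were CD3-positive through Cd3g without Cd3d or Cd3e. Those 9 cells, a group formed after the values were seen, had Nkg7, Ccl5, Klrd1 and Klrk1 in all 9, 0 UMIs of the gamma chain constant genes Tcrg-C1, Tcrg-C2 and Tcrg-C4, and 1 UMI of Trac. They alone held the 122 UMIs of Gzma.

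Subsets with T cell genes were counted in the same way. Of 24 CD3-positive cells with Cd8a or Cd8b1, Nkg7 was in 12, Ccl5 in 8 with 399 UMIs, Klrk1 in 5, Gzmb, Xcl1, Ifng and Trdc in 3 each, Prf1 and Klrd1 in 2 and Gzma in 1. The 6 cells with Cd4, all of male 1, had 4 UMIs of Gzma in 1 cell and Trdc in 2, and none of the other 8 genes. The 18 cells with both Trdc and a gamma chain constant gene had a distinct pattern, with Prf1 in 9, Klrk1 in 9 and Nkg7 in 8 but 0 UMIs of Gzma and of Gzmb. These subsets overlap, a cell can be in more than 1, and counts this small carry wide intervals.

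Trdc was found in both classes. Of the 28 CD3-positive cells with a Trdc UMI, the 18 with a gamma chain constant gene held 264 of 286 UMIs. In CD3-negative cells Trdc was in 9, all with Ncr1 or Klrb1c, at 16 UMIs in all and 5 in the highest, and Tcrg-C1 and Tcrg-C2 had 0 UMIs among the 24 cells of that kind. Tcrg-C4 was in 6 of those 24 cells. Over all 42 CD3-negative cells Tcrg-C4 was in 15, Tcrg-C1 in 8 and Tcrg-C2 in 0, so a UMI of a gamma chain constant gene was not limited to CD3-positive cells.

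**Figure D3:**
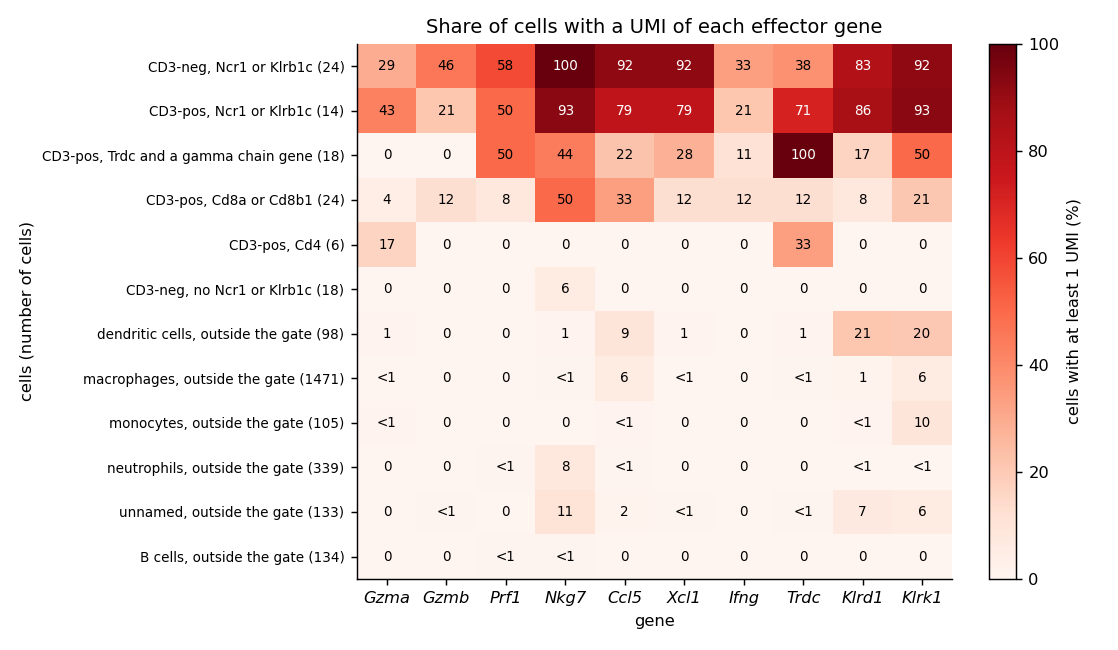
Percentage of cells with at least 1 UMI of each gene, in subsets of the lymphocyte cluster (number of cells in brackets) and in the other cell types outside the gate. The 18 CD3-negative cells without Ncr1 or Klrb1c are nearly blank, and the strongest colour outside lymphocytes is that of Klrd1 and Klrk1 in dendritic cells (21.4% and 20.4%). The Trdc value of the subset selected on Trdc is 100 by construction.

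Seen cell by cell, some lymphocytes had many of the effector genes and others none. Of the 42 CD3-negative cells, 17 had none of the 10 genes, 1 had 1, 4 had 2 to 4 and 20 had 5 or more, with a median of 4. Of the 78 CD3-positive cells 24 had none, 18 had 1, 16 had 2 to 4 and 20 had 5 or more, with a median of 1. Cells with 5 or more numbered 4 of 8, 7 of 16 and 9 of 18 CD3-negative cells and 5 of 27, 5 of 14 and 10 of 37 CD3-positive cells in male 1, 2 and 3. The CD3-negative share with 5 or more genes was above the CD3-positive share in each mouse, and both the cells with many and the cells with none were common among CD3-negative cells. That class mixes the kinds of cell described above, and whether the genes came together within 1 kind was not tested.

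Pairs of genes were then counted per cell. Every CD3-negative cell with Gzma (7), Gzmb (11), Prf1 (14), Ccl5 (22), Xcl1 (22), Ifng (8), Trdc (9), Klrd1 (20) or Klrk1 (22) also had Nkg7, which was in 25 of all 42. All of these cells were among those with Ncr1 or Klrb1c, every one of which had Nkg7. The full overlap is therefore set by the mixture of the class and cannot show a pairing of genes. The granule genes were less often found as a full set: Gzma, Gzmb and Prf1 were together in 5 of 42 CD3-negative and 2 of 78 CD3-positive cells, while any of the 3 was present in 17 and 23. In CD3-negative cells, 8 of the 11 cells with Gzmb also had Prf1. In CD3-positive cells 2 of the 7 with Gzmb did, and 13 of the 15 cells with Prf1 had Trdc, which was in 28 of all 78. Co-detection is limited by depth, since Prf1 had 1 UMI in 17 of the 29 cells that had it, and a missing UMI is no proof that a gene was off.

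**Figure D4:**
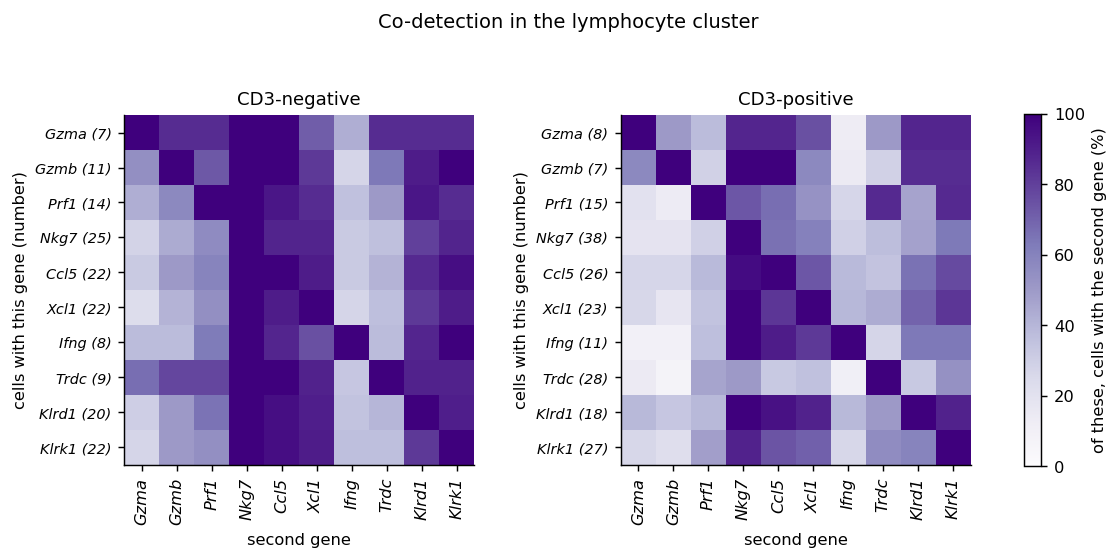
For each gene (rows, with the number of cells that have it), the percentage of those cells that also have a UMI of a second gene (columns), in CD3-negative and CD3-positive cells of the lymphocyte cluster. The Nkg7 column is full in CD3-negative cells, as all their cells with Ncr1 or Klrb1c had Nkg7 and the rest had no other member. In CD3-positive cells the Prf1 row is darkest at Nkg7, Trdc and Klrk1.

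**Figure D5:**
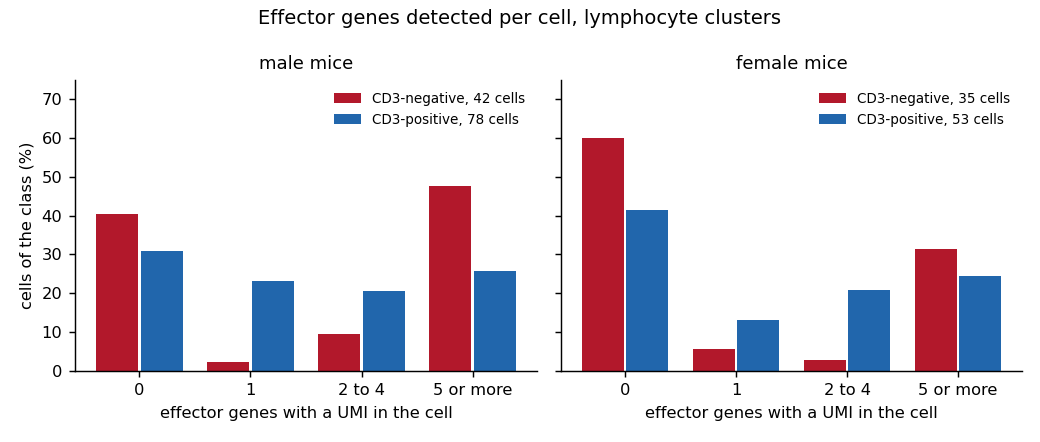
Percentage of the cells of each class with 0, 1, 2 to 4 and 5 or more of the 10 genes detected, in male mice (42 CD3-negative, 78 CD3-positive cells) and female mice (35 and 53). In both panels CD3-negative cells pile up at 0 and at 5 or more, with few in between. The median was 4 in CD3-negative and 1 in CD3-positive cells of male mice, but 0 and 1 in female mice.

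The cells with a female hashtag were used to see the same values in animals that the deposited expression matrix does not hold. Their lymphocyte clusters, found with the cells of all 6 mice, held 88 gate cells, 35 CD3-negative (12, 7 and 16) and 53 CD3-positive (19, 17 and 17). Of the 35, 12 had Ncr1 or Klrb1c and 23 had neither but a gene of the ILC2 list. The 12 had Nkg7 and Klrk1 in 12 and Ccl5 and Klrd1 in 11. The 23 had 1 UMI each of Ccl5 and Trdc and 0 of the other 8 genes. The composition was thus split in the same way, with the cells of the ILC2 list in the majority.

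Gzma in these animals was at 46.9, 0 and 22.5 UMIs per 10000 in CD3-negative cells of female 1, 2 and 3 and at 3.64, 0 and 0.271 in CD3-positive cells. Female 2, with 7 CD3-negative cells of which 2 had Ncr1 or Klrb1c, had none in either class. Of the 37 Gzma UMIs in CD3-positive cells of the female clusters 33 were in 1 cell. Ccl5 was at 70.7, 1.39 and 17.4 against 54.9, 13.3 and 10.997, and Klrd1 at 7.76, 1.39 and 1.71 against 4.37, 2.29 and 1.76, so the classes overlapped. In these clusters edgeR called 0 of the 7 genes tested at an adjusted p of 0.05, and 1 had an unadjusted p under 0.05, Gzma (log2 fold change 3.999, standard error 1.07, adjusted p = 0.0540). Over all genes 167 of 1044 had an unadjusted p under 0.05 by edgeR. DESeq2 called 0 of the 6 members that had an adjusted p, as 750 of all genes had. Its unadjusted p was under 0.05 for 2 members and for 188 genes, those without an adjusted p included. Of all 1044 genes tested, 2.68% (28 genes) were higher and 2.11% (22) lower in CD3-negative cells, and DESeq2 called 16 and 22. With the mouse as a block Gzma passed (log2 fold change 4.23, adjusted p = 4.26e-04). In all female gate cells 3 of 7 genes were higher in CD3-negative cells (Gzma, Xcl1 and Klrk1), against 12.4% of 1894 genes. The count was 6 with the mouse as a block (243 of 1894 genes higher), 5 without female 3 (195 of 2269) and 0 without female 1 (162 of 2091). Over all genes 235 were higher and 402 lower there, 111 and 414 by DESeq2, and 882 and 223 by library size alone.

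Over the lymphocyte clusters of all 6 mice, with sex as a term, Gzma was higher in CD3-negative cells (log2 fold change 2.90, standard error 0.70, adjusted p = 0.0122), against 5.08% of 1024 genes, and Trdc lower (-2.11, standard error 0.52, adjusted p = 0.0132), against 4.30%. Xcl1 had an adjusted p of 0.0518, and no other member was called, so Ccl5 and Klrd1 were not. Gzma ran the other way in male 2 and was absent from both classes of female 2. The difference between the male and female contrasts was tested as an interaction and called 0 of 7 members by edgeR, with 2 at an unadjusted p under 0.05 (Xcl1 and Klrk1), and 0 of 1851 genes, with 154 at an unadjusted p under 0.05. In the lymphocyte clusters it called 0 of 7 members, with 0 at an unadjusted p under 0.05, and 0 of all 1024 genes, with 48. The interaction of Gzma in all gate cells, male minus female, was -2.20 with a standard error of 1.69, an error wide enough to hide a large difference.

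Other genes of the same pathways were read from 6 lists, in the lymphocyte cluster, as a description, beside 3.11% of all genes called higher and 1.42% lower. Of 10 tested killer receptor and adaptor genes 5 were higher in CD3-negative cells and 0 lower, among them Tyrobp and Fcer1g, signalling adaptors (log2 fold change 1.90 and 2.04), Klrb1f (2.47) and Cd7 (1.83). The median of that list was 1.18, against 0.01 over all genes tested. Of 9 transcription factors 3 were higher, Eomes (2.55), which NK cells use, Gata3 (1.88) and Id2 (1.46), which innate lymphoid cells use, and Tcf7 (-2.70), a T cell factor, was lower, with a median of -0.17. Of 6 cytokines and chemokines 1 was higher, Ccl4 (2.94), a chemokine, with a median of 0.61. Of 14 genes of the T cell receptor complex 0 were higher and 5 lower (median -0.86), among them Cd247 (-2.10) and Thy1 (-1.53). Trac had 154 UMIs in CD3-positive cells and 0 in CD3-negative cells, and Cd8b1 133 and 1. Of 6 homing genes 1, Ccr2, was higher (0.94, median 0.06), and of 3 further granule genes tested 0 passed in either direction (median -0.04).

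The classes are defined by CD3, so changes of T cell receptor genes are part of the definition and are not support for it. With all 373 cells, where 14.0% of all genes were called higher and 18.9% lower, the lists gave 11 higher and 3 lower of 17 killer receptor genes, 5 and 3 of 10 granule genes, 3 and 0 of 6 cytokines, 6 and 1 of 13 transcription factors, 7 and 0 of 13 T cell receptor genes and 6 and 3 of 11 homing genes. The T cell receptor list thus ran in opposite directions in the gate, where Tcrg-C4 (3.63), Icos (3.14), Tcrg-C1 (2.18) and Cd27 (1.80) were higher in CD3-negative cells, and in the lymphocyte cluster. Trbc1 and Trbc2 of this list are gate genes through which CD3-negative cells enter, so its direction in the gate is partly set by the rule. Tyrobp and Fcer1g, which neutrophils also express, were lower in CD3-negative cells of the gate (-1.08 and -1.15), opposite to the cluster. In the gate Itgam, an integrin of myeloid cells, had a log2 fold change of -4.92. The largest folds toward CD3-negative cells in the gate were those of Il1rl1, Nrgn, Hs3st1, Hes1 and Gem (5.02 to 3.999), and in the cluster those of Nrgn (3.36), Ccl4, Eomes, Klrb1f and Ncr1. Ncr1, one of the gate genes through which CD3-negative cells enter, had 196 UMIs in CD3-negative and 81 in CD3-positive cells of the cluster.

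Across 20 sums of mouse and cell class or type, the genes most like the sum of the 10 members were Slco3a1 (Pearson r 0.922 of log2(CPM + 1)), Leprotl1 (0.914), Ppm1j (0.894), Dkkl1 (0.889) and Cd226 (0.885), the last an activating receptor of NK and T cells. Ppm1j and Dkkl1 rest on 47 and 39 UMIs in all. The sums share a lane and their mice, so no p is given.

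Outside lymphocytes, 4 of the members had a pattern of their own. Klrk1 had only 44.0% of its 300 UMIs in the lymphocyte cluster. It was found in 31 of 91 cells of a cluster counted with the macrophages (34.1%, 95% interval 24.5% to 44.7%), at no more than 2 UMIs in a cell. The markers raised in that cluster were C1qb, Fcgr1, Ms4a4c and Bst2. Among all 1471 macrophages outside the gate the share with Klrk1 was 6.12%. Median depth was 8777 UMIs in the cluster and 8558 in all macrophages, and after thinning to 2000 UMIs the shares were 11.2% and 1.96%. Ccl5 was in 16 of those 91 cells with 215 UMIs, and 1 cell held 73 of them. In monocytes its 54 UMIs were all in 1 cell.

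Of 98 dendritic cells, 21 had Klrd1 and 20 Klrk1 at a median depth of 13873.5 UMIs, and after thinning the shares were 3.06% and 7.14%. Dendritic cells with Xcr1 or Clec9a and no Cd209a, markers of type 1 cells, had Klrd1 in 6 of 43 and Klrk1 in 12 of 43. Those with Cd209a alone, a marker of type 2 cells, had them in 12 of 40 and 6 of 40, so the order of the receptors was opposite in cells pooled over mice. It was not so in male 2, where each receptor was in 2 of 14 cells of the first kind and 1 of 12 of the second. The exact intervals overlap, 5.30% to 27.9% against 16.6% to 46.5% for Klrd1.

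Outside lymphocytes Nkg7 had 167 UMIs in 26 of 339 neutrophils (7.67%, 3.93% after thinning) and 82 UMIs in 14 of 133 cells of the unnamed cluster (10.53%, 5.51% after thinning). In the unnamed cluster 1 cell held 41 of the 82 UMIs, and the 14 cells came from 2 mice. Most of the neutrophil UMIs came from 1 cluster. In the deepest neutrophil cluster, with a median of 19836 UMIs in the 39 cells outside the gate, 22 had Nkg7 at 162 UMIs, and 25.6% still did after thinning to 2000 UMIs, against at most 1.30% in any macrophage cluster. The 5 gate cells of the unnamed cluster, all with Mki67, held 135 UMIs of Gzma in 3 cells, 87 of Nkg7, 39 of Trdc and 37 of Ncr1. Of the Gzma UMIs 91 were in 1 cell, and the median depth of the 5 cells was 19973 UMIs against 4527.5 in the 120. Whether they were doublets was not settled, since the doublet call marked too few cells to rely on.

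CD3-negative cells were 11.8% of the 373 gate cells (44 cells, 95% interval 8.70% to 15.5%) and 8.99%, 24.2% and 9.17% in male 1, 2 and 3. In the lymphocyte cluster they were 35.0% of 120 (42 cells, 26.5% to 44.2%), and 22.9%, 53.3% and 32.7%. The 15 cells of that cluster under the gate were not counted. With the 7-gene gate reduced to 6 by leaving out Cd3d, CD3-negative cells were 30.6% of 144. In each version male 2 had the highest share. The share is of captured cells, and cells lost in digestion or sorting cannot be told apart from cells that were not there.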

How the data were processed

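CD45+ cells of the dorsal root ganglia of 6 mice were labelled with hashtag antibodies and sequenced in 1 lane of the 10x 3′ v3 assay. The authors aligned reads to mm10 with Cell Ranger (3.1.0 per the file headers) and filtered and demultiplexed cells in Seurat, and the deposited values are raw UMI counts per gene and cell. The deposited matrix of 2668 cells held 23403638 UMIs (median 8283.5 per cell). The larger deposited count matrix (4395 barcodes, 4111 after the filter of the study) was demultiplexed here with HTODemux (Seurat 5.3.0), which gave 3741 singlets, 269 doublets and 101 negatives. It gave every deposited cell 1 male hashtag, with 0 differing entries, and 1073 further cells 1 female hashtag. A hashtag was taken as 1 mouse. Scrublet (scanpy 1.11.5) marked 13 of the 2668 cells, too few to count as a working doublet call. Leaving out the marked cells was run as an alternative. Clusters were named from marker genes at least 1 log2 unit up and in at least 20% of cells, with 3 or more markers, or, for macrophages, from C1q genes at 25% or more of the highest cluster.

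The 10 members and all gene lists were chosen with earlier results of these data known. Counts were summed per mouse and class and tested with edgeR 4.0.16 (quasi-likelihood test, TMM, filterByExpr, Benjamini-Hochberg adjustment over all genes tested, R 4.3.3), without the mouse as a block. DESeq2 1.42.0 (Wald test), library size alone, no filter on counts, the mouse as a block, other gate limits, cells thinned to 2000 UMIs and leaving out each mouse were alternatives. Use of the lymphocyte clusters in the other contrasts, and a gate without Cd3d, were added after seeing the data. The CD3-negative and CD3-positive sums of a mouse come from the same animal and are paired. The deviations of the paired sums correlated at 0.0916, -0.0449 and 0.199 in male 1, 2 and 3 for all gate cells and at 0.0448, -0.0019 and 0.069 in the lymphocyte cluster. Named genes were the members, the gate genes, up to 4 called genes per list and direction with the largest fold, the 5 genes per direction with the largest fold that moved alike in each mouse, and the 5 genes most correlated with the summed members. All cells share 1 lane, so a lane effect could not be measured. Other genes named as subset markers were used to describe cells and were not tested. The edgeR test by class was first tested on simulated data, for the main contrasts and for the lymphocyte cluster of male mice. DESeq2, the mouse as a block, the sex term and the interaction were not tested in this way.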

Additional observations from a re-analysis of the deposited data

How the results depend on the processing

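All 10 members were higher in gate cells than in other cells under every alternative run, where 798 of 9257 to 1803 of 9723 genes were. They were also higher in the runs on the lymphocyte cluster (362 of 9325 to 2022 of 9180 genes), which are a description and no test. None was called for the difference between male and female mice under any, where 0 of all genes tested were. The number of members that differed between CD3-negative and CD3-positive cells varied with the cells, the classes and the mice. Brackets give the genes higher and lower among all tested. The number was 9 in all gate cells (451 and 607 of 3218) and 2 with Cd3d left out of both gate and classes (4 and 5 of 1660). Gate cells without those marked by Scrublet gave 9 members higher and 1 lower (451 and 630 of 2954). In the lymphocyte cluster the number was 5 (35 and 16 of 1124). Within that cluster it was 5 with library size alone (36 and 16 of 1124), 5 thinned to 2000 UMIs (16 and 7 of 468) and 5 with the replicate block (40 and 18 of 1124). DESeq2 gave 3 there (17 and 15 of 2564), and leaving out the filter gave 2 (29 and 58 of 11420). Leaving out 1 mouse gave 1 to 8 in the cluster, where 9 to 25 genes were higher and 11 to 15 lower. In the clusters of 6 mice 2 were called (52 and 44 of 1024). The cluster holds fewer cells and fewer genes tested by construction, and the cause of the other moves was not tested. In female mice the number was 3 in all gate cells (235 and 402 of 1894) and 5 with a gate of 2 UMIs (320 and 451 of 2015). With library size alone it was 6 (882 and 223 of 1894) and without the filter 6 (159 and 814 of 12160). With the replicate block it was 6 (243 and 393 of 1894) and without Cd3d 0 (30 and 51 of 1083). Leaving out 1 mouse gave 0 to 5, where 139 to 195 genes were higher and 332 to 409 lower. In the female clusters it was 0 (28 and 22 of 1044), also 0 by DESeq2, with library size alone and without any 1 mouse. There it was 1 with the replicate block (32 and 23 of 1044) and 3 without the filter (56 and 52 of 10875). The replicate block changed the calls of Gzmb in all male gate cells and of the female members so counted, and no other call. The CD3-negative share moved from 11.8% to 35.0% in the cluster and 30.6% without Cd3d.

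Signs reversed in the clusters for genes called higher in all gate cells. These were Ifng in male mice, and Xcl1 and Klrk1 in female mice. The log2 fold change of Ifng in the cluster was -0.21 by DESeq2, -0.067 without the filter and -0.13 without male 1, against 2.62 in all gate cells. In the female clusters Xcl1 was -0.36 without female 1, and Klrk1 was -0.027, -0.15 without the filter, -0.39 without female 1 and -0.030 without female 3. Thinning to 2000 UMIs lowered the share of cells with Ifng from 15.8% to 8.55% and with Prf1 from 24.2% to 13.7%, and both were under the filter on counts in the lymphocyte cluster.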
